A study of Mus musculus with 12 samples.

Results

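The miR-200 family was followed in small RNA from sorted mouse embryonic cells, in 12 libraries that fell into 4 stages of 3 libraries. Members were all entries of the count table named for the hairpins mir-200a, mir-200b, mir-200c, mir-141 and mir-429 (such as mmu-miR-200b-3p, shortened here to miR-200b-3p), which gave 12 of the 1053 entries, with 7 of the 633 mature arms and 5 of the 420 precursors. At embryonic day (E) 8.5 the cells were tdTomato-positive cells sorted from whole embryos that carried Foxa2mcm. This is a knock-in at the Foxa2 locus whose Cre is active after tamoxifen, which was given to the pregnant dams. The study used it to label endoderm, and the group is called E8.5 endoderm here after that use. Whether it also held other cell types was not tested. From E9.5 to E11.5 the sorted cells were tdTomato-positive cells from the trunk of embryos that carried Pdx1-Cre, a transgene that drives Cre in cells of the Pdx1 domain, from which the pancreas, the duodenum and the distal stomach arise. In all 4 groups tdTomato was expressed from the Rosa26 locus after Cre had removed a stop cassette, so sorted cells were marked by lineage and not by the driver's expression at the time of the sort. Per the study's methods, the fathers of these crosses also carried 1 mir-302 allele replaced by eGFP, and the mir-302 genotype of the embryos was not known here. Because driver, tamoxifen treatment, dissected region and stage changed together between E8.5 and E9.5, they cannot be told apart in any comparison with E8.5.

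The miR-200 family is a textbook marker of epithelial cells. Its members repress the transcription factors Zeb1 and Zeb2, which in turn repress the adhesion gene Cdh1 (E-cadherin) and the miR-200 genes themselves, so that the miRNAs and the Zeb factors hold each other down. In the pancreas the family is known from ductal and endocrine epithelium, and the gut tube that forms from the endoderm is an epithelium. Each hairpin is cut into a 5p and a 3p arm, and target choice rests mainly on the seed, the stretch from base 2 to base 8 of the mature arm.

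The sequences of the 5 hairpins' mature arms were taken from RefSeq (GRCm38.p6), and all 7 mature arms of the table matched an entry there. The 3p arms are shown because they carried nearly all reads and because their seeds, in capitals, divide them into classes. miR-200b-3p, miR-200c-3p and miR-429-3p share 1 seed:
miR-200b-3p: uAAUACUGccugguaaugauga
miR-200c-3p: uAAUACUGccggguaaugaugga
miR-429-3p: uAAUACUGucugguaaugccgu
miR-200a-3p and miR-141-3p share the other:
miR-200a-3p: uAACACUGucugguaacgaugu
miR-141-3p: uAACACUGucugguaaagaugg
Counted from 1 at the 5′ end, the seeds of miR-200b-3p and miR-200a-3p differ by U4C. No other mature mouse miRNA in the RefSeq table had either seed. Over the first 22 bases, miR-200b-3p and miR-200c-3p differ at 2 positions (U11G and A22G), and so do miR-200a-3p and miR-141-3p (C17A and U22G). Other pairs differ at 4 or 5 positions. Because of this likeness a read with an error or a trimmed end could be assigned to a neighbour, which was not tested. Such exchange would leave the sum over all arms as it is, but it could move reads between single arms and, since each of the closest pairs joins both loci, between the locus sums and in their ratio. The 5p arms in the table, miR-200b-5p and miR-200a-5p, share a seed of their own:
miR-200b-5p: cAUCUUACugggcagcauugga
miR-200a-5p: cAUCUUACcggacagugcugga
The 5p arms of mir-200c, mir-141 and mir-429 were not analysed here. The hairpin Mir200b, with its 5p and then its 3p arm in capitals, is shown as the source of the most abundant arm of the chromosome 4 locus:
Mir200b: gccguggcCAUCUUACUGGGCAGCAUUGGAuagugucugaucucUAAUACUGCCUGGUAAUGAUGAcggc

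Seed class and genomic locus cross each other in this family. Mir200b, Mir200a and Mir429 lie in that order on the minus strand of chromosome 4, at chr4:156053905-156055750 (GRCm38), a span of 1846 bases. Mir200a and Mir200b lie inside the genes Ttll10 and Gm13648, on the same strand and outside their annotated exons, while Mir429 overlaps an exon of Gm13648 (GENCODE M21 annotation). Mir200c and Mir141 lie on the minus strand at chr6:124717914-124718390, a span of 477 bases between Phb2 and Ptpn6. Both are inside Gm15884, an antisense transcript gene, and Mir141 also overlaps an exon of Gm29008, a transcript of uncertain status. The chromosome 4 locus holds members of both seed classes, and so does the chromosome 6 locus. In the table the chromosome 4 locus had 8 entries, 5 of them mature, and the chromosome 6 locus had 4 entries, 2 of them mature.

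Library totals ranged from 53996 to 1103383 reads assigned to miRNA entries, and the E9.5 libraries, at 53996 to 80075 reads, were the smallest. Counts were scaled to CPM, the usual depth-scaled unit, with library totals adjusted by the TMM method of edgeR. An entry with 0 counts could have stood at up to 32.0 to 75.9 CPM at E9.5 (the level of 3 counts), against 2.74 to 25.8 CPM in the other stages. Levels of different arms are given per arm, all being 22 or 23 bases long, and how well the library kit captured each sequence was not measured.

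The family was abundant at every stage, and its sum was lowest in E8.5 endoderm. The 7 mature arms together took 1.16%, 1.13% and 1.12% of all miRNA reads in E8.5 endoderm (replicates 1 to 3, the order used throughout). They took 2.14%, 2.19% and 1.51% in the E9.5 cells, where counting error was greatest (95% Wilson interval 1.42% to 1.62% for replicate 3). At E10.5 the shares were 2.31%, 1.498% and 2.42%, and at E11.5 they were 2.53%, 3.93% and 3.95%. Every later library exceeded every E8.5 library. Most of the family was miR-200b-3p and miR-200c-3p, which together made up 71.4% to 88.6% of its mature reads per library. Each ranked among the leading miRNAs of the Pdx1-Cre-marked cells, between rank 11 and rank 43 for miR-200b-3p and between rank 12 and rank 25 for miR-200c-3p, against ranks 42 to 54 and 27 to 29 at E8.5. For miR-200b-3p, rank 43 came from E9.5 replicate 3, the smallest library, and lies within the E8.5 range. The other Pdx1-Cre libraries had ranks 11 to 22. In these sorted bulk samples, fewer cells with a miRNA and less of it per cell cannot be told apart.

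**Figure D1:**
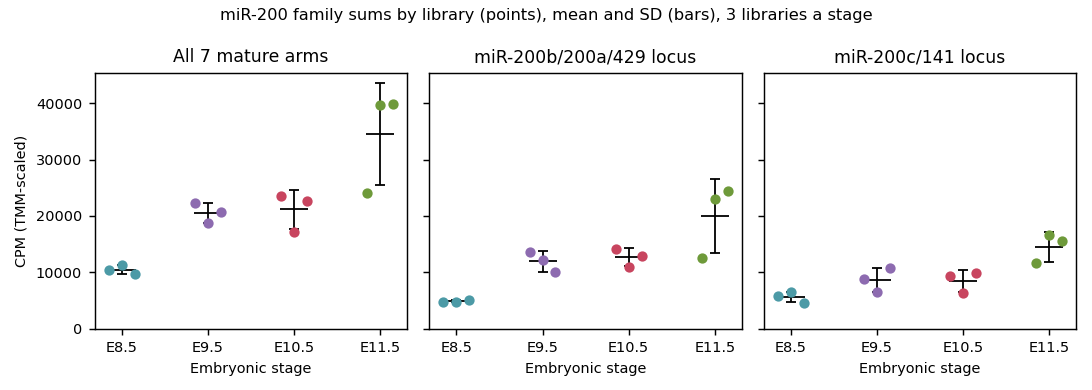
CPM of the summed mature arms for the whole family and for each locus (y axis, linear from 0) by embryonic stage (x axis). Points are libraries, long bars are means of 3 libraries and whiskers are 1 SD; the E8.5 libraries (9656 to 11232 CPM for the family) lie below all later ones, and E11.5 replicate 1 (24076 CPM) lies apart from the other E11.5 libraries.

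The family sum rose between E8.5 endoderm and E9.5 Pdx1-Cre-marked cells, and it was also higher at E11.5 than at E8.5. It stood at 10390.2, 11232 and 9656 CPM in E8.5 endoderm and at 22296, 18699 and 20685 CPM in the E9.5 cells. The E10.5 libraries held 23611, 17169.8 and 22695 CPM, and those of E11.5 held 24076, 39644 and 39959 CPM. The E9.5 and E10.5 libraries overlapped, the E8.5 libraries lay below both, and all E11.5 libraries lay above both. E9.5 exceeded E8.5 by a log2 fold change of 0.99 (SE 0.27, 1.99-fold; edgeR quasi-likelihood test, adjusted p = 0.0285), in a fit that called 6.02% of all entries. E11.5 exceeded E8.5 by 1.75 on the log2 scale (SE 0.28, 3.36-fold, edgeR adjusted p = 0.00011), where 11.3% of entries were called. From E9.5 to E10.5 the estimate was 0.02 (95% interval -0.54 to 0.58, edgeR adjusted p = 0.967). From E10.5 to E11.5 it was 0.73 (0.17 to 1.30, adjusted p = 0.327), and from E9.5 to E11.5 it was 0.76 (0.19 to 1.32, adjusted p = 0.126), so neither passed the test although the libraries did not overlap. The fit called 4.25%, 0.354% and 4.42% of entries in these last comparisons.

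How the libraries were scaled mattered for these sizes. Over the 571 entries tested, the median log2 fold change was -0.84 for E9.5 against E8.5, and scaling by RLE size factors moved that median by 0.64 and the family sum's change to 1.66. Relative to the median of all entries, the family sum changed by 1.84 with TMM, 1.87 with RLE and 1.88 with library size alone. These values lie close together by construction, because scaling moves the sum and the median nearly alike, so they do not test the call. With library size alone the family sum's own change was 0.78 and no longer passed the test (edgeR adjusted p = 0.131). From E9.5 to E10.5, RLE moved the median of all entries by -0.46 and turned the estimates for the family sum and the chromosome 4 locus to -0.48 and -0.41, and from E9.5 to E11.5 it moved the median by -0.71 and the family sum to 0.018. The call for E9.5 against E8.5 was also lost without any single one of E8.5 replicates 1, 2 and 3, E9.5 replicate 1, E10.5 replicates 2 and 3, and E11.5 replicates 2 and 3, with log2 fold changes of 0.83 to 1.24 and edgeR adjusted p = 0.0567 to 0.241. The call for E11.5 against E8.5 held under all 12 alternative settings and in all 12 fits that left out a library.

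The chromosome 4 locus had the larger estimates of change over E8.5 endoderm. The sum of its mature arms (miR-200b, miR-200a and miR-429) was 4671, 4797 and 5050.1 CPM in E8.5 endoderm and 13511, 12238 and 9988 CPM in the E9.5 cells. The E10.5 libraries had 14194, 10917 and 12919.7 CPM and the E11.5 libraries had 12512, 23011 and 24492 CPM. The E8.5 libraries lay within a narrow range below all others, and E11.5 replicate 1 lay within the range of E9.5 and E10.5. E9.5 was higher than E8.5 by a log2 fold change of 1.32 (SE 0.33, 2.49-fold, edgeR adjusted p = 0.0167), and E11.5 by 2.08 (SE 0.34, 4.22-fold, edgeR adjusted p = 0.000157), in fits that called 5.83% and 11.7% of entries. Changes between E9.5, E10.5 and E11.5 did not pass the test, with estimates of 0.08, 0.68 and 0.76 and edgeR adjusted p = 0.905, 0.450 and 0.208, beside 4.42%, 0.353% and 4.42% of entries called. Of the 12 fits that left out a library, 7 kept the E9.5 call, and it was lost without E8.5 replicate 1 or 2, E9.5 replicate 1 or E11.5 replicate 2 or 3 (1.12 to 1.29, edgeR adjusted p = 0.0607 to 0.202).

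At the chromosome 6 locus the sum of miR-200c-3p and miR-141-3p was 5719, 6435 and 4606 CPM in E8.5 endoderm and 8785, 6461 and 10696 CPM in the E9.5 cells. The E10.5 libraries had 9417, 6253 and 9775 CPM and the E11.5 libraries had 11564, 16634 and 15466.5 CPM. The lowest E9.5 library lay just above the highest E8.5 library, the lowest E10.5 library lay below it, and the E11.5 libraries lay above all others. Only E11.5 against E8.5 passed the test, with a log2 fold change of 1.41 (SE 0.36, 2.66-fold, edgeR adjusted p = 0.0118). For E9.5 against E8.5 the estimate was 0.64 (95% interval -0.10 to 1.39, edgeR adjusted p = 0.281), which became 1.32 and passed with RLE scaling (adjusted p = 0.0368). The call for E11.5 against E8.5 was lost without E8.5 replicate 1, 2 or 3 or E11.5 replicate 2 or 3 (1.26 to 1.48, edgeR adjusted p = 0.0607 to 0.117).

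Whether the loci changed by different amounts was tested on the ratio of their reads within each library, which does not depend on scaling. The chromosome 4 reads include miR-200b-5p and miR-200a-5p, while the chromosome 6 reads are of 3p arms only. The chromosome 4 locus held 45.0%, 42.7% and 52.3% of the family's mature reads in E8.5 endoderm and 60.6%, 65.4% and 48.3% in the E9.5 cells. Its share was then 60.1%, 63.6% and 56.9% (E10.5) and 52.0%, 58.0% and 61.3% (E11.5). In E8.5 and E9.5, 1 library each crossed the range of the other stage, and the later stages overlapped each other. The stage means of the log2 ratio of chromosome 4 to chromosome 6 reads were -0.19 ± 0.29 (E8.5), 0.48 ± 0.52 (E9.5), 0.60 ± 0.20 (E10.5) and 0.42 ± 0.28 (E11.5), each with the SD of 3 libraries. A difference between the 4 stages beyond the spread between libraries was not detected (exact permutation test over 369600 arrangements, p = 0.0923, adjusted over 8 ratios p = 0.185). The test therefore does not separate the loci, although their sums differed in which comparisons passed.

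**Figure D2:**
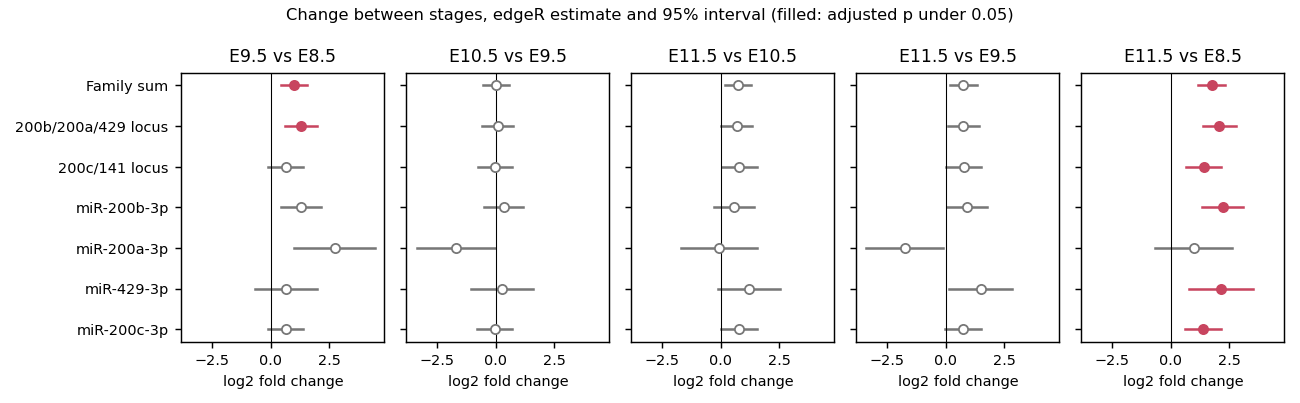
Log2 fold change between stages (x axis) for the family sum, the locus sums and the 4 most abundant 3p arms (y axis), 1 panel per comparison. Points are edgeR estimates and lines are 95% intervals; filled red points passed an adjusted p under 0.05, which occurred for the family and chromosome 4 sums at E9.5 against E8.5 and for all but miR-200a-3p at E11.5 against E8.5.

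Entry by entry, 11 of the 12 members had enough reads to be tested, and the mir-141 precursor did not. At E11.5 against E8.5, 3 of the 11 (miR-200b-3p, miR-429-3p and miR-200c-3p) passed the edgeR test, all higher at E11.5, where 11.6% of all entries tested were called and 5.25% were called higher. The other comparisons called 0 of 11 with the edgeR test, with backgrounds of 5.6% for E9.5 against E8.5, 4.38% for E10.5 against E9.5, 0.35% for E11.5 against E10.5 and 4.55% for E11.5 against E9.5. An unadjusted p under 0.05 was reached by 2, 1, 1 and 3 members in those comparisons and by 4 at E11.5 against E8.5, beside 20%, 18.2%, 10.7%, 18.4% and 23.3% of all entries, so the counts in the first 3 comparisons lay near or below the background. DESeq2 called 3, 1, 0, 1 and 3 of the 11 in the same order, beside 14.9%, 14%, 1.51%, 10.8% and 17.7% of the entries to which it gave an adjusted p. Its calls at E9.5 against E8.5 were miR-200a-3p, miR-200b-3p and miR-200c-3p, all higher at E9.5, and miR-200a-3p was the member that it called lower in both later stages than at E9.5. The libraries of the stages compared did not overlap for 3 of the 11 members at E9.5 against E8.5 (34.3% of all entries), 3 at E10.5 against E9.5 (15.8%), 5 at E11.5 against E10.5 (13.5%), 5 at E11.5 against E9.5 (22.6%) and 6 at E11.5 against E8.5 (38.5%). The median log2 fold change of the 11 members was 0.64 for E9.5 against E8.5 and 1.88 for E11.5 against E8.5, beside -0.84 and -0.07 over all entries. The members tested had to pass a filter that a high stage alone can satisfy, so these medians describe the tested entries and not the family as a whole.

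**Figure D3:**
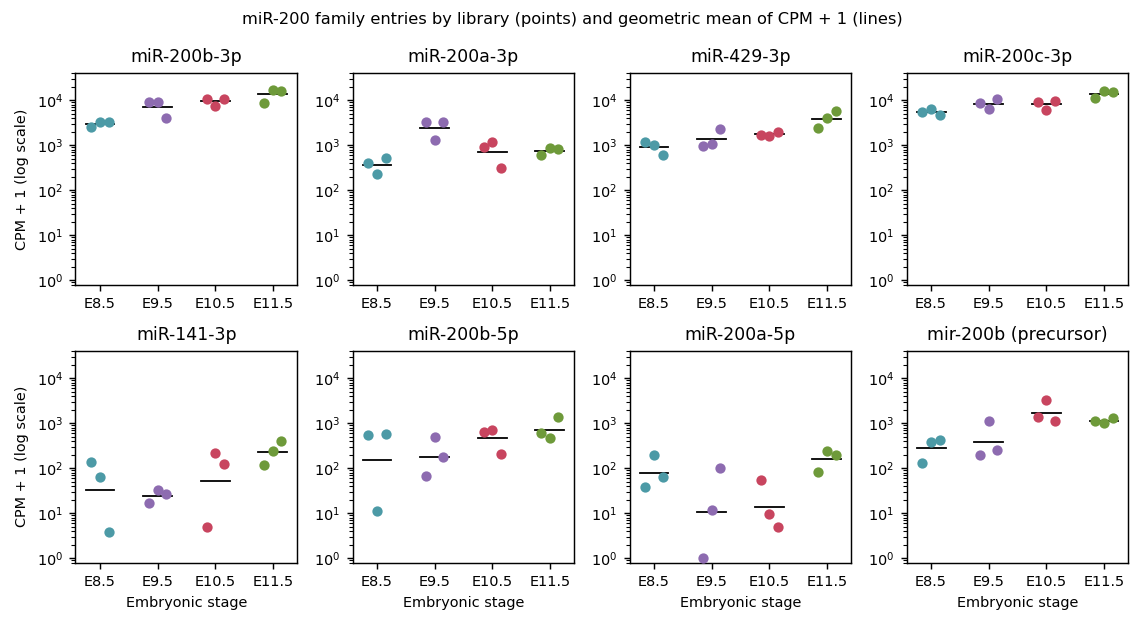
CPM + 1 on a log scale (y axis) by embryonic stage (x axis) for the 7 mature arms and the mir-200b precursor, 1 panel each. Points are libraries and lines are geometric means of 3 libraries; with TMM scaling, miR-200a-3p has its highest mean at E9.5 (1335 to 3287 CPM) and the other abundant 3p arms have theirs at E11.5, although with RLE scaling the change of miR-200c-3p from E9.5 to E11.5 turns to -0.043 on the log2 scale.

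mmu-miR-200b-3p, of the chromosome 4 locus, carried 40.5% of the family's mature reads over all libraries and had the smallest adjusted p of the 11 entries tested at E11.5 against E8.5. It stood at 2499, 3338 and 3285 CPM in E8.5 endoderm, at 9256, 9312 and 4096.5 CPM in the E9.5 cells, then at 10859.5, 7395 and 10461 CPM (E10.5) and 8772, 17353 and 16337 CPM (E11.5). All E8.5 libraries lay below all later ones, E9.5 replicate 3 stood apart from the other E9.5 libraries on the low side, and E11.5 replicate 1 lay within the E10.5 range. E11.5 exceeded E8.5 by 2.22 on the log2 scale (SE 0.42, 4.66-fold, edgeR adjusted p = 0.000841). The E9.5 estimate over E8.5 was 1.31 (SE 0.41, edgeR adjusted p = 0.0650), and it passed without E9.5 replicate 3 (1.66, adjusted p = 0.00756) or E10.5 replicate 1 (1.62, adjusted p = 0.0238). This change also passed in 8 of the 12 alternative settings, with estimates of 1.18 to 1.90 and adjusted p from 0.000241 (DESeq2) to 0.0467 (no filter), so that the missing call depends on the settings used.

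mmu-miR-429-3p, which shares the seed of miR-200b-3p and lies last in the same cluster, was a several times smaller component of the family. It was read at 1174, 1020.4 and 606 CPM in E8.5 endoderm, at 974, 1079 and 2326 CPM in the E9.5 cells, then at 1705, 1632 and 1936 CPM (E10.5) and 2457, 4099.6 and 5775 CPM (E11.5). The E8.5 and E9.5 libraries overlapped, and all E11.5 libraries lay above all others. E11.5 exceeded E8.5 by a log2 fold change of 2.14 (SE 0.66, 4.40-fold, edgeR adjusted p = 0.0363). This call was lost without E8.5 replicate 1, 2 or 3 or E11.5 replicate 2 or 3 (1.91 to 2.40, edgeR adjusted p = 0.0859 to 0.181). It was also lost in 5 of the 12 alternative settings: RLE scaling (2.06, adjusted p = 0.0545), no filter (2.17, 0.0592), counts under 10 set to 0 (1.94, 0.103), thinned libraries (1.89, 0.121) and the replicate block (2.03, 0.0699). Its ratio to miR-200b-3p, 10.6% to 56.9% of the miR-200b-3p reads per library (0.5 added to each count here and in the ratios that follow), showed no difference across stages that passed the test (exact permutation p = 0.594).

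mmu-miR-200a-3p, with the other seed and encoded between Mir200b and Mir429, had its highest values in the E9.5 cells. It stood at 403, 235 and 529 CPM in E8.5 endoderm, at 3215, 1335 and 3287 CPM in the E9.5 cells, then at 936, 1177 and 308 CPM (E10.5) and 604, 862 and 835 CPM (E11.5). All E9.5 libraries lay above all libraries of the other stages, and E10.5 overlapped both E8.5 and E11.5. No comparison of it passed the edgeR test. The estimates were 2.74 for E9.5 against E8.5 (SE 0.84, edgeR adjusted p = 0.0545), -1.69 for E10.5 against E9.5 (SE 0.81, adjusted p = 0.267) and -1.77 for E11.5 against E9.5 (SE 0.81, adjusted p = 0.232). These rested on 125 to 198 reads per E9.5 library. The E9.5 against E8.5 change passed without E9.5 replicate 2 (3.30, adjusted p = 0.0115) or E10.5 replicate 1 (3.01, adjusted p = 0.0402). It also passed in 6 of the 12 alternative settings (2.61 to 3.398), with adjusted p from 9.34e-06 (DESeq2) to 0.0332 (only the stages compared). The lower levels after E9.5 passed in DESeq2, by -2.21 at E10.5 (adjusted p = 0.0104) and -2.54 at E11.5 (adjusted p = 0.00212), and in edgeR on entries with at least 10 counts in every library (-2.12 and -2.22, adjusted p = 0.0218 and 0.0164).

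miR-200a-3p and miR-200b-3p come from neighbouring hairpins of 1 cluster, and their ratio was compared within libraries. miR-200a-3p reads amounted to 16.2%, 7.08% and 16.1% of miR-200b-3p reads in E8.5 endoderm and to 34.8%, 14.4% and 80.3% in the E9.5 cells, then to 8.64%, 15.96% and 2.96% (E10.5) and 6.90%, 4.97% and 5.11% (E11.5). The ratio spread widely within E9.5 and E10.5, and the E11.5 libraries lay below all E8.5 and E9.5 libraries. Across stages the exact permutation test gave p = 0.0355, and 0.112 after adjustment over 8 ratios, so the difference did not pass. The ratio of the seed classes rests on the same reads in part, since most of the second class was miR-200a-3p. The reads of miR-200b-3p, miR-200c-3p and miR-429-3p were 15.9 to 35.97 times those of miR-200a-3p and miR-141-3p in E8.5 endoderm, 5.14 to 12.3 times in the E9.5 cells, then 10.8 to 50.8 times (E10.5) and 30.1 to 34.5 times (E11.5). No difference passed here either (exact permutation p = 0.0421, adjusted p = 0.112). The E9.5 libraries had lower ratios than all libraries of E8.5 and E11.5. With 3 libraries against 3, the smallest p that a single pair of stages can give is 0.1, which E9.5 reached against both.

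**Figure D4:**
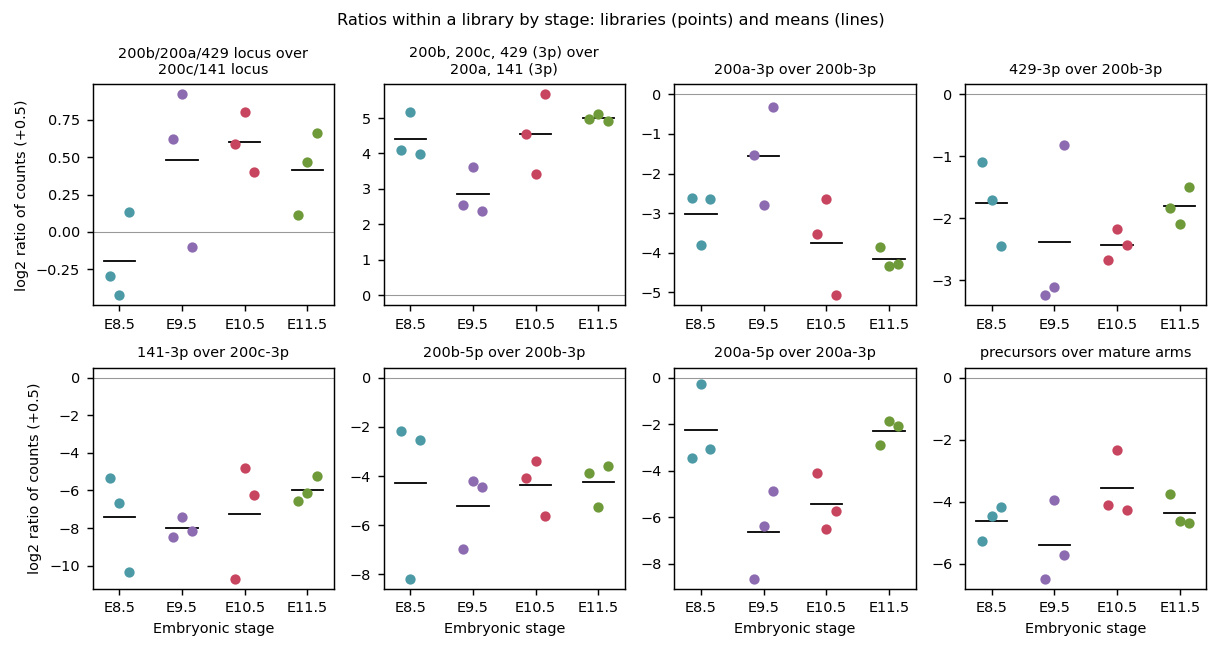
Log2 ratio of read counts within each library, with 0.5 added to each count (y axis), by embryonic stage (x axis), for 8 ratios of family members. Points are libraries and lines are means of 3; the panel of miR-200a-5p over miR-200a-3p spans the widest range of stage means among the panels (4.36), and none of the 8 ratios passed an adjusted p under 0.05.

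mmu-miR-200c-3p carried 42.2% of the family's mature reads and nearly all those of the chromosome 6 locus. It was read at 5581, 6373 and 4603 CPM in E8.5 endoderm, at 8769, 6429 and 10671 CPM in the E9.5 cells, then at 9413, 6038 and 9651 CPM (E10.5) and 11445.5, 16398.5 and 15066 CPM (E11.5). The E11.5 libraries lay above all others, and E10.5 overlapped E8.5. E11.5 exceeded E8.5 by a log2 fold change of 1.37 (SE 0.37, 2.59-fold, edgeR adjusted p = 0.0166), and the call was lost without E8.5 replicate 1 or 3 or E11.5 replicate 2 or 3 (1.25 to 1.44, edgeR adjusted p = 0.0618 to 0.126) and with thinned libraries (0.83, adjusted p = 0.232). The E9.5 estimate over E8.5 was 0.64 (SE 0.37, edgeR adjusted p = 0.283), and it passed with RLE scaling and with DESeq2 (1.33 each, adjusted p = 0.0369 and 0.0107). In mean level it exceeded miR-200b-3p at E8.5, with no overlap of libraries (4603 to 6373 against 2499 to 3338 CPM). In the later stages the ranges of these arms overlapped, so their order there is not resolved.

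mmu-miR-141-3p, encoded 3′ of Mir200c in the same short locus, was rare by comparison. It had 80, 24 and 2 reads in E8.5 endoderm, 1, 3 and 1 in the E9.5 cells, then 1, 25 and 32 (E10.5) and 52, 257 and 333 (E11.5), which makes 0.0606% to 3.62% of the miR-200c-3p reads of the same library. All E9.5 libraries were at or under the 3-count floor, as were E8.5 replicate 3 and E10.5 replicate 1. The ratio of miR-141-3p to miR-200c-3p showed no detectable difference across stages at this depth (exact permutation p = 0.683). The contrast with the chromosome 4 cluster was in the arms' shares: miR-429-3p and miR-200a-3p took 10.8% and 2.87% of the family's mature reads over all libraries, and miR-141-3p took 0.664%. These pooled shares mostly describe E11.5, which gave 87131 of the 122135 reads. At E9.5 the mean shares were 7.13% for miR-429-3p, 12.5% for miR-200a-3p and 0.122% for miR-141-3p.

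The 5p arms were minor products at most stages. miR-200b-5p was read at 559, 10.3 and 568 CPM in E8.5 endoderm, at 65.0, 502 and 177 CPM in the E9.5 cells, then at 639, 704 and 210.4 CPM (E10.5) and 599.5, 459 and 1346 CPM (E11.5). It amounted to 0.348% to 22.4% of the miR-200b-3p reads, and no difference of this ratio across stages was detected (exact permutation p = 0.93). E8.5 replicate 2, with 4 reads of miR-200b-5p against 323 and 393 in the other E8.5 libraries, shows how far libraries of 1 stage diverged for such arms.

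miR-200a-5p had 21, 75 and 43 reads in E8.5 endoderm, 0, 1 and 4 in the E9.5 cells, then 14, 1 and 1 (E10.5) and 35, 259 and 166 (E11.5). As a share of miR-200a-3p reads it was 9.21% to 82.5% in E8.5 endoderm, 0.252% to 3.45% in the E9.5 cells, then 1.09% to 5.88% (E10.5) and 13.4% to 27.5% (E11.5). The ranges of E9.5 and E10.5 overlapped each other and lay below those of E8.5 and E11.5. Over 8 ratios this one had the smallest p (exact permutation p = 0.0116), but it did not pass after adjustment (p = 0.0930). Its E9.5 values rest on 5 reads of miR-200a-5p in all, so its level there is at the edge of detection.

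Precursor entries count reads assigned to a hairpin, and how reads were divided between a hairpin and its arms is not given in the sources used here. All but 1 were sparse. The mir-200b precursor stood at 126, 387 and 425 CPM in E8.5 endoderm, at 195, 1111 and 253 CPM in the E9.5 cells, then at 1344, 3255 and 1122 CPM (E10.5) and 1142, 1023 and 1282 CPM (E11.5). The E10.5 and E11.5 libraries lay above the E8.5 libraries without overlap, and E9.5 replicate 2 lay within the E11.5 range. No comparison passed the edgeR test, with estimates of 1.86 for E10.5 against E9.5 (SE 0.91, edgeR adjusted p = 0.282) and 1.88 for E11.5 against E8.5 (SE 0.90, edgeR adjusted p = 0.215), although limma voom and the edgeR fit of only the stages compared called the latter. The precursors of mir-200c, mir-429 and mir-200a had 721, 399 and 228 reads over all libraries. The mir-141 precursor had 83 reads, of which 80 came from E11.5 replicate 2 and 3 from E8.5 replicate 2. Summed over the 5 hairpins, precursor reads amounted to 1.13% to 19.9% of mature reads, with the highest share in E10.5 replicate 2, and no difference across stages was detected (exact permutation p = 0.198).

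Across the 12 libraries, the levels of the abundant arms were related to different degrees. On log2(CPM + 1), Pearson's r was 0.901 between miR-200c-3p and miR-429-3p, which lie on different chromosomes and share a seed. It was 0.756 between miR-200b-3p and miR-200c-3p and 0.674 between miR-200b-3p and miR-429-3p, the pair of 1 cluster with 1 seed. miR-200a-3p had r of 0.245 with miR-200b-3p and 0.106 with miR-429-3p, the other arms of its own cluster. These are descriptions over 12 libraries that share stage and scaling, and libraries of a stage are not independent points of a trend.

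Not counting members, 5 mature miRNAs of at least 100 CPM on average followed the family sum most closely, out of 257 compared (median r -0.04). They were let-7e-5p (r = 0.888), miR-7b-5p (0.872), miR-99b-5p (0.854), miR-125a-5p (0.831) and miR-205-5p (0.828). Spearman's rho ran from 0.727 to 0.916 among them, and r ran from 0.724 to 0.844 without the 2 libraries farthest from the median of the family sum. let-7e, miR-99b and miR-125a are encoded in 1 cluster in mammals, and miR-205 is an epithelial miRNA that also targets the Zeb factors. let-7e-5p averaged 1240 ± 549 CPM in E8.5 endoderm and 14831 ± 4018 CPM in the E11.5 cells, and miR-205-5p averaged 183 ± 104 and 1199 ± 302 CPM (SD, n = 3 each). Within the 9 Pdx1-Cre libraries alone r stayed at 0.848 for miR-99b-5p and 0.863 for miR-125a-5p but was 0.607 for let-7e-5p, 0.504 for miR-7b-5p and 0.412 for miR-205-5p.

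**Figure D5:**
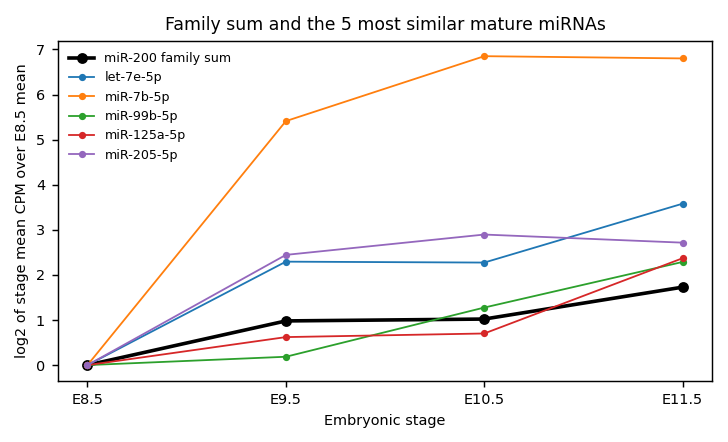
Log2 of the mean CPM of each stage over the mean at E8.5 (y axis) by embryonic stage (x axis) for the family sum (thick black line) and the 5 most similar mature miRNAs. Points are means of 3 libraries; with TMM scaling miR-99b-5p and miR-125a-5p, like the family sum, are highest at E11.5 (with RLE the family sum is level from E9.5 to E11.5, at 0.018), and miR-7b-5p and miR-205-5p are nearly level from E10.5 to E11.5.

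Other epithelial miRNAs (miR-375, miR-203, miR-205, miR-192, miR-194 and the miR-183 cluster) were read in every library, apart from miR-192-5p. That arm was at 0 in libraries of E8.5, E9.5 and E10.5 and averaged 7.12 CPM at E9.5, under the 3-count floor. All 8 were tested, and 2, 3, 0, 3 and 4 of them were called higher and 0 lower at E9.5 against E8.5, E10.5 against E9.5, E11.5 against E10.5, E11.5 against E9.5 and E11.5 against E8.5 (edgeR, adjusted p under 0.05), beside 4.03%, 1.58%, 0%, 1.23% and 5.25% of all entries. In the same order, their median log2 fold change was 1.399, 0.64, -0.13, 0.51 and 1.76, beside -0.84, 0.17, 0.07, 0.66 and -0.07 over all entries. It thus lay below that of all entries at E11.5 against E10.5 and against E9.5. miR-203-3p, an epidermal miRNA, averaged 405 ± 431 CPM in E8.5 endoderm and 10475 ± 14495 CPM in the E9.5 cells (SD, n = 3 each, log2 fold change 4.69, edgeR adjusted p = 0.00278). Its mean was lower again later, at 2397 CPM (E10.5) and 1633 CPM (E11.5). miR-375-3p, the islet miRNA, averaged 17877 CPM in E8.5 endoderm and 51016 CPM in the E11.5 cells (1.51, edgeR adjusted p = 0.000203). The list summed to 68932 to 75897 CPM in E8.5 endoderm and to 87609.7 to 111516 CPM in the E9.5 cells, then to 148401 to 230277 CPM (E10.5) and 153469 to 190692 CPM (E11.5).

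Some markers of other cell types were called between stages as well, and their part in the family's changes was not tested. The 7 mesenchymal miRNAs summed to 7288 to 13693 CPM in E8.5 endoderm and to 1655 to 8598 CPM in the E9.5 cells. The sums were then 3607 to 13531 CPM (E10.5) and 4315 to 9364 CPM (E11.5). Of these miRNAs, miR-199a-3p and miR-199b-3p had nearly the same levels (113.7 to 3667 and 113.7 to 3616 CPM at E9.5). The sums may therefore hold the same reads in both entries, which was not tested. In E8.5 endoderm most of the mesenchymal sum was miR-143-3p. It was lower in the E9.5 cells (8684 and 1446 CPM on average, edgeR adjusted p = 0.00208) and higher again at E10.5 (5877 CPM, adjusted p = 0.0237). The 6 mesenchymal miRNAs tested had a median log2 fold change of 0.98 at E9.5 against E8.5, beside -0.84 over all entries. Its middle entries were miR-199a-3p and miR-199b-3p, which may hold the same reads, so this median does not describe the whole list. miR-199a-5p (21.4 to 32.5 CPM at E9.5) and miR-214-3p (0 to 75.9 CPM at E9.5), both higher in mean at E9.5, were at or under the 3-count floor at both stages. In mean CPM at these stages miR-199a-3p (720 and 1342) and miR-199b-3p (625 and 1325) were higher at E9.5, with wide spread, and miR-145a-5p (51.7 and 3.56) was lower. The mesenchymal sum averaged 10084 CPM in E8.5 endoderm and 6807 CPM in the E11.5 cells, and miR-143-3p averaged 8684 and 4453 CPM. At E11.5 against E8.5, where the family was higher, 2 of 6 mesenchymal miRNAs tested were called higher (5.25% of all entries) and 0 lower. They were miR-199a-5p, with 0 reads in all E8.5 libraries and 108 to 360.2 CPM at E11.5 (edgeR adjusted p = 0.0181), and miR-214-3p, at 1.45 to 7.75 CPM and 261 to 748 CPM (edgeR adjusted p = 0.0250). Both passed the filter only through later stages where they were high, so this count describes the tested entries and not the list as a whole. The 3 muscle miRNAs summed to 6286 to 26546 CPM in E8.5 endoderm, 5278 to 26855 CPM in the E9.5 cells and 266 to 3518 CPM later (miR-1a-3p, the only 1 of the 3 tested, was lower in the E11.5 cells than in E8.5 endoderm, edgeR adjusted p = 0.00115). In E8.5 endoderm miR-1a-3p averaged 16078 CPM, with wide spread, where the family sum averaged 10426 CPM. The cell types behind these reads were not tested. Endothelial miR-126a (2 arms) stood at 1821 to 2281 CPM in E8.5 endoderm and 32.5 to 429.5 CPM later, and hepatic miR-122 at 463 to 593 CPM in E8.5 endoderm and 38790.3 to 130754 CPM later. The edgeR test called neither endothelial arm in any comparison, and it called miR-122-5p higher at E9.5 and at E11.5 than at E8.5. Leukocyte markers (2 of 4 in the table, 0 tested) were 10.7 to 2655 CPM in the E9.5 cells and at most 59.3 CPM elsewhere. Most of the E9.5 sum was miR-223-3p (0 to 2655 CPM), while miR-142a-5p averaged 3.56 CPM there and 19.3 CPM in E8.5 endoderm. Erythroid markers (2 of 4, 1 tested) stood at 32.5 to 834 CPM and neural markers (3 of 4, 2 tested) at 0 to 507 CPM over all libraries. No erythroid or neural entry was called in any comparison. The table holds no mRNA, so Foxa2, Pdx1, Cdh1 and the Zeb genes could not be read beside the family.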

How the data were processed

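Small RNA was measured in 12 libraries (3 per stage), each from sorted tdTomato-positive cells. The deposited table held raw counts of reads for each mature or precursor entry, 1 column per library, neither normalised nor pooled by the authors. Per the study's methods, counts came from the COMPSRA pipeline on mm10: the 3′ adapter and 4 random bases were trimmed, reads of 17 to 35 or 36 bases were kept, and STAR was the aligner. The random bases were not used to count molecules, so counts are reads after PCR, and intervals and floors cover counting error only.

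Counts were tested with edgeR 4.0.16 (glmQLFit and glmQLFTest, TMM factors, filterByExpr with a minimum count of 10 and a minimum total of 15) in R 4.3.3, with all 12 libraries in 1 fit and stage as the only factor. Benjamini-Hochberg adjustment ran over all 571 entries tested, and an entry was called at an adjusted p under 0.05. For the family and locus sums, mature counts were added and replaced their members in the table (565 and 566 entries tested). Tests were two-sided. Within-library log2 ratios, with 0.5 added to each count, were compared by an exact permutation test (numpy 2.4.6), adjusted over 8 ratios. It ran over all 369600 assignments of 12 libraries to 4 stages of 3. Wilson intervals came from scipy 1.17.1. The edgeR fit and the permutation test were tried on simulated data first, and the other steps were not.

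Alternatives were RLE factors, library size alone, no filter, at least 10 counts in every library, counts under 10 set to 0, DESeq2 1.42.0 (the tool of the study), limma voom 3.58.1, only the stages compared, the table without precursors or without mir-6236 and mir-6240, a replicate block and leaving out each library. Thinning every library to the smallest total was added after the data were seen. All members were named, with the 5 most similar mature miRNAs by Pearson's r and the fixed marker lists. The members and lists were chosen with earlier results of these data known.

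The labels do not say whether libraries of a stage came from separate litters, so p-values measure the spread between these samples. The number in the library names was the same within a stage, so any batch it marks and stage cannot be told apart. Sequences are from RefSeq (GRCm38.p6) and annotation from GENCODE M21, both of the build of the files.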

Additional observations from a re-analysis of the deposited data

How the results depend on the processing

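Over 48 results and 1106 alternative values, 959 were classed as unchanged. For log2 fold changes this meant the same direction and side of the threshold, and for the 8 ratios the same side alone. For counts of members called it meant an equal or close count (2 in place of 3 was classed as unchanged). The higher level at E11.5 than at E8.5 passed the test in every alternative fit for the family sum and the chromosome 4 locus. All log2 fold changes in this section are later over earlier stage. For E9.5 against E8.5 the family sum did not pass with library size alone (0.78), counts under 10 set to 0 (0.58) or limma voom (0.99), nor did the chromosome 4 locus (1.12, 0.85 and 1.33). The chromosome 6 locus passed there with RLE (1.32) and DESeq2 (1.32), and lost its E11.5 against E8.5 call when libraries were thinned (0.85). For E11.5 against E9.5 the family sum passed with counts under 10 set to 0 (1.01).

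Between E9.5 and E10.5 the estimates lay near 0 and changed sign. The family sum was -0.48 with RLE, -0.0088 with no filter, -0.22 with at least 10 counts in every library, -0.47 without mir-6236 and mir-6240, -0.040 with mature entries only, -0.28 thinned, -0.48 with DESeq2 and -0.21 with only the stages compared. The chromosome 4 locus was -0.41 with RLE and with DESeq2, -0.12 with at least 10 counts, -0.36 without mir-6236 and mir-6240, -0.18 thinned and -0.25 with only the stages compared. The chromosome 6 locus was 0.075 with library size alone, 0.067 with counts under 10 set to 0 and 0.11 with voom, and for E11.5 against E9.5 it was -0.0086 with RLE and -0.0059 with DESeq2. Of single arms for E10.5 against E9.5, miR-200b-3p became -0.14 (RLE and DESeq2), -0.0042 (at least 10 counts) and -0.032 (without mir-6236 and mir-6240). miR-429-3p became -0.32 (RLE), -0.17, -0.21, -0.056 (thinned) and -0.31 (DESeq2). miR-200c-3p became 0.061 (library size alone), 0.053 (counts under 10 set to 0) and 0.11 (voom), and for E11.5 against E9.5 -0.043 (RLE), -0.040 (DESeq2) and -0.015 (thinned). miR-200a-3p for E11.5 against E10.5 became 0.027, 0.11 and 0.27 with library size alone, counts under 10 set to 0 and voom. Apart from the effects of fewer entries or fewer reads that some of these settings have by construction, the cause was not tested.

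The number of members called at E9.5 against E8.5, 0 of 11, beside 5.6% of all entries, became 3 of 11 with RLE and DESeq2 (8.76% and 14.9% of all entries in the same fits). It became 2 of 5 with at least 10 counts (39.3%), 2 of 11 without mir-6236 and mir-6240 (7.57%), 2 of 7 with mature entries only (8.82%), 2 of 7 with only the stages compared (10.2%), 1 of 12 with no filter (4.08%) and 1 of 7 thinned (9.38%). At least 10 counts and DESeq2 each called 1 member, miR-200a-3p, at E10.5 against E9.5 (19.6% and 14% of all entries) and at E11.5 against E9.5 (19.6% and 10.8%). Thinning left 1 of 7 at E11.5 against E8.5 (11.0%). The ratio of miR-200a-5p to miR-200a-3p passed with counts under 10 set to 0 (range of stage means 5.95, adjusted p = 0.0234).

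Leaving out each library in turn gave 0.83 to 1.24 for the family sum at E9.5 against E8.5, -0.22 to 0.20 at E10.5 against E9.5 and 0.56 to 1.11 at E11.5 against E9.5, where it passed without E11.5 replicate 1. The chromosome 4 locus ranged over 1.12 to 1.60 and -0.18 to 0.28 in the first comparisons. The chromosome 6 locus ranged over -0.37 to 0.16 at E10.5 against E9.5 and 1.26 to 1.67 at E11.5 against E8.5. Members called ranged from 0 to 2 at E9.5 against E8.5 (2 without E10.5 replicate 1, where 5.94% of all entries were called) and from 1 to 3 at E11.5 against E8.5, where 1, miR-200b-3p, was called without E8.5 replicate 1 or 3 or E11.5 replicate 2 or 3 (6.1% to 7.77% of all entries). miR-200c-3p ranged over -0.41 to 0.14 and miR-429-3p over -0.11 to 0.76 at E10.5 against E9.5, miR-200a-3p over -0.45 to 0.38 at E11.5 against E10.5, and the range of stage means of miR-200a-5p over miR-200a-3p over 3.36 to 5.25, passing without E9.5 replicate 3 (adjusted p = 0.0452).

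The labels give the stages the same replicate numbers. Libraries with the same number did not deviate together: correlations of their deviations from stage means were -0.13 to 0.12, against -0.15 to 0.14 for different numbers, and 5 of 12 libraries were closest to their own number. With a replicate block the family sum at E9.5 against E8.5 was 0.99 (edgeR adjusted p = 0.0437), the count of members called at E11.5 against E8.5 was 2 in place of 3, miR-429-3p there no longer passed (2.03, adjusted p = 0.0699), and no other call changed.

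Depth limits the rare members: at E9.5 miR-141-3p, miR-200a-5p and every precursor but mir-200b had at most 4 reads per library.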
